A study of Mus musculus with 6 samples.

Results

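Ebi3 and 9 other genes for secreted immune mediators (Il12a, Il10, Il3, Il4, Il5, Il13, Csf2, Lif and Tgfb1) were followed in mouse T cells exposed to macrophage supernatant, as 10 of the 55401 genes in the count table. Genes were picked by symbol. Ebi3 was chosen by its fold change in the same comparison that is described here, and the other 9 genes were selected with earlier results of these data known. The values of Ebi3 are therefore a description without a test, and none of the fold changes below is independent evidence of its direction. The 6 bulk RNA-seq libraries came from 3 control cultures, in medium conditioned by untreated macrophages, and 3 NFL cultures, in medium conditioned by macrophages that had been stimulated with NFL, the light chain of the neurofilaments that form the axon skeleton. In both groups the T cells came from mouse spleen and were positively selected with beads against CD8a. The macrophages of both groups were derived from CD11b-positive spleen cells with 50 ng/mL M-CSF for 7 days, and their filtered supernatant was used at 50% in RPMI-1640 medium with 2% serum. According to the deposited design text, the macrophages of the NFL group received NFL at 5 µg/mL for 24 h, which was prepared from freeze-thawed sciatic nerve. The methods of the study instead give a lower NFL concentration for co-cultures and name a purchased NFL protein for injection into mice, so the dose and source used here are uncertain. If the nerve preparation was used, NFL and other nerve material cannot be told apart. Those methods name female C57BL/6 and NOD-SCID mice for the animal experiments, but the strain, age and sex of the spleen donors and any T-cell stimulation were not stated for these samples, and nothing stated that the 3 cultures of a group came from separate animals. The p-values then measure only the spread between these samples, which may be technical.

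Cytokines are secreted proteins that carry signals between immune cells. EBI3 is the beta subunit of heterodimeric cytokines of the IL-12 family: it pairs with the p28 protein of Il27 in IL-27 and with the p35 protein of Il12a in IL-35, whereas p35 pairs with the p40 protein of Il12b in IL-12, and p40 with the p19 protein of Il23a in IL-23. IL-10 and TGF-beta 1 are best known for restraining immune responses, IL-4, IL-5 and IL-13 are the classical type 2 cytokines, IL-3 and GM-CSF (the product of Csf2) act on myeloid cells, and LIF belongs to the IL-6 family. Activated T cells can transcribe many of these genes, and NF-κB, NFAT and AP-1 factors are known regulators of several of them.

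The promoter windows of Ebi3 and Csf2 are shown because these 2 genes stood higher in every NFL library. Both sequences were taken from RefSeq (GRCm38.p6), run 5′ to 3′ on the strand of the gene, and cover 250 bases before and 50 bases after the annotated start. Capitals mark matches to the NF-κB consensus in Ebi3 (chr17:55952373-55952672, plus strand) and matches to the NFAT core GGAAA in Csf2 (chr11:54249850-54250149, minus strand).
Ebi3: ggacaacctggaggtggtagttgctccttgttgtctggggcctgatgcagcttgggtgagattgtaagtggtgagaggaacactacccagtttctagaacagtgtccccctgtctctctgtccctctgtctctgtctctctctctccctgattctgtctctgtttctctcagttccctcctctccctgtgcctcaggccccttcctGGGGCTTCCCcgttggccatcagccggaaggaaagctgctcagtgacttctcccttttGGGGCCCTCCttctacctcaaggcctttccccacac
Csf2: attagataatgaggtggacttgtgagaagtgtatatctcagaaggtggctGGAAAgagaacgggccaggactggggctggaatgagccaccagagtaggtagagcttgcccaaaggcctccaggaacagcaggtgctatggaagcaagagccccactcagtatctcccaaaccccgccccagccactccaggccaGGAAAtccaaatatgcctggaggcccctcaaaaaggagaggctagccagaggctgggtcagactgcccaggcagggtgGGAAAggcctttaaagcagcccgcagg

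Motifs were searched on both strands of the windows of 9 of the 10 genes, since Il10 had none in the table, and Il12a and Il4 had more than 1 window. The Ebi3 window held the NF-κB consensus 2 times, starting 44 bases before and 14 bases after the start. Lif held 1 match, GGGACGCCCC, starting 178 bases before its start, and Tgfb1 held 1 match, GGGACCCCCC, starting 140 bases before its start. The consensus was not found in the windows of Csf2, Il12a, Il3, Il4, Il5 or Il13, and it occurred in 8.46% of all 32851 windows of this length. The NFAT core GGAAA, which occurred in 61.3% of all windows, was found 3 times in Csf2 and 2 times in Ebi3, and no marked match overlapped a match to another motif. It was also found 5 times in the second Il4 window, 4 times in Il13 and 2 times in Il5. Il3, Lif, the first Il4 window and the second Il12a window each held 1 match, and Tgfb1 held none. The AP-1 motif TGANTCA occurred in 7.81% of all windows and was found in the Lif window but not in those of Ebi3 and Csf2. Neither of those windows held the STAT motif TTCNNNGAA (8.3% of all windows) or TATAAA (13.6%). The RefSeq start of Csf2 lay 232 bases upstream of the start in the GENCODE annotation, so its window does not reach that second start. A match here is a description of letters and was not linked to binding of any factor.

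Read counts were deposited for every gene, and the total per library ran from 15843045 to 24639756. Levels of a gene between libraries are given in CPM, its count relative to the library size. A floor of 3 counts was 0.122 to 0.189 CPM. Of the 10 genes, 5 passed the filter on low counts and were tested (Ebi3, Csf2, Il10, Il13 and Tgfb1), and 5 did not (Il12a, Il3, Il4, Il5 and Lif). A gene could pass through the group in which it was higher, so the tested genes do not stand for all 10. Among the tested genes, 2 stood past the threshold of an adjusted p of 0.05 in the test across all genes, both higher with NFL supernatant, and one of these is Ebi3, for which this follows from its choice. Of all 14082 genes tested, 986 (7.00%) were called in either direction, with 489 (3.47%) higher and 497 (3.53%) lower. With library size alone as the scaling, the calls split into 372 higher and 600 lower. Groups did not overlap for 2 of the 5 tested genes and for 22.7% of all genes tested. The median log2 fold change was 0.09 over the 5 tested genes and -0.001 over all genes tested.

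Levels were compared between genes per length, as RPKM, the counts divided by annotated exon length in kilobases and by library total (scaled as CPM). Tgfb1 had the highest level of the 10, at a median of 31.4 over the 6 libraries (29.98 to 33.05), which lay at percentile 84.4 of 10858 tested protein-coding genes. Csf2 (median 13.6, range 10.45 to 18.33) and Il10 (median 13.4, range 12.2 to 14.3) came next, and their ranges overlapped. Ebi3 followed with a median of 2.19 (1.13 to 3.53), at percentile 22.7. Il13 was lower, with a median of 0.877 (0.839 to 1.23), and its range overlapped that of Ebi3 at the lowest Ebi3 library, control replicate 1. Il4 had a median of 0.183 and ranged from 0 to 0.236. Il5 reached at most 0.0792 and Lif at most 0.0426, both within the level that 3 counts give. Il12a and Il3 had no count in any of the 6 libraries, which allows up to 0.0716 to 0.111 per library for Il12a and 0.194 to 0.301 for Il3. Intervals and floors cover counting error only. Per exon length, Il10 was above Csf2 in the control libraries (13.01 to 13.69 against 10.45 to 12.14). It was below Csf2 in the NFL libraries (12.18 to 14.29 against 14.96 to 18.33). The order of their medians over 6 libraries is therefore not settled. The Il10 median came above that of Csf2 when the coding length was used in place of the exon length, at 32.9 and 25.6. It also did when any 1 NFL library was left out, at 13.1 to 13.69 against 12.14.

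**Figure D1:**
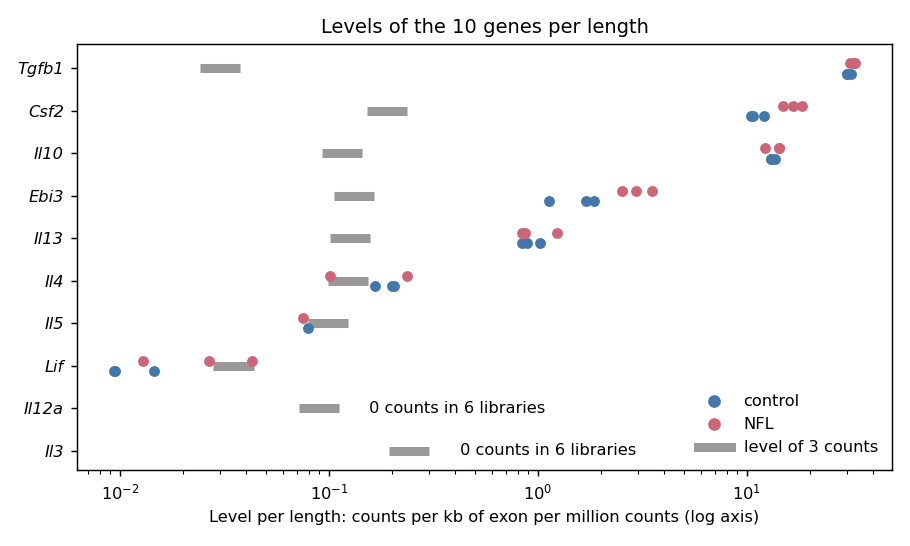
Level per length of each of the 10 genes in each library (RPKM over annotated exons, log axis; blue, 3 control libraries; red, 3 NFL libraries), with grey bars for the level that 3 counts give over the library sizes. Tgfb1, Csf2 and Il10 lie above 10, Ebi3 near 2.19, and Il12a and Il3 have no points because they had 0 counts.

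Ebi3 (chromosome 17, 55952640 to 55957022, plus strand, GENCODE M21, GRCm38) had 32, 31 and 52 counts in control replicates 1 to 3 and 66, 59 and 52 in NFL replicates 1 to 3. Scaled to library size, these were 1.30, 1.95 and 2.13 CPM in the control libraries and 4.10, 3.43 and 2.95 CPM in the NFL libraries. Every NFL library was above every control library, and the nearest pair, control replicate 3 and NFL replicate 3, had the same count of 52 in libraries of different size. The exact 95% Poisson intervals of that pair, 1.598 to 2.806 and 2.18 to 3.83 CPM on library totals, overlapped. The means were 1.79 ± 0.435 CPM in control cultures and 3.492 ± 0.5798 CPM in NFL cultures (SD, n = 3 each). The spread within a group was of the order of the counting error, which was 0.292 CPM in control and 0.453 CPM in NFL libraries. The log2 fold change was 0.97 ± 0.25 (SE), a 1.96-fold higher level (95% interval 1.38 to 2.78). Because Ebi3 was chosen by this change, the interval is a description without its stated coverage, and its distance from no change is not a test. In the fit across all genes Ebi3 was no longer past the threshold without control replicate 1, at a log2 fold change of 0.77, or without NFL replicate 1, at 0.84.

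**Figure D2:**
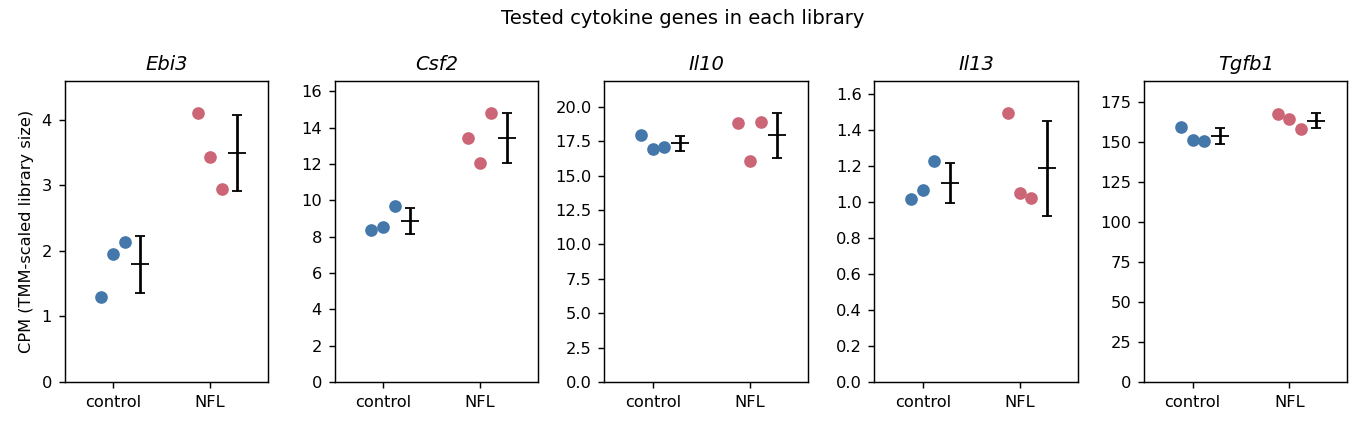
CPM (scaled to TMM-adjusted library size, axes from 0) of the 5 tested genes in each library, with points for single libraries and a bar for the mean and SD of each group of 3. The control and NFL points do not overlap for Ebi3 and Csf2 and overlap for Il10, Il13 and Tgfb1.

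An antisense transcript, Gm16712, overlaps 2252 bases of the Ebi3 gene span on the opposite strand, and whether counting used strand was not stated. Gm16712 had 15, 3 and 14 counts in control libraries and 6, 10 and 17 in NFL libraries, and it did not pass the test (log2 fold change 0.42, edgeR adjusted p = 0.726).

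The partner subunits of EBI3 were at or near 0. Il12a had 0 counts in all 6 libraries, so the transcript of the p35 chain of IL-35 was not detectable at this depth. Il27, the partner in IL-27, had 4, 0 and 9 counts in control libraries and 4, 1 and 2 in NFL libraries. Il12b, the p40 chain, had 2 counts in NFL replicate 1 and 0 in the other libraries. The family member with the highest level per length was Il23a (median RPKM 8.04, against 2.19 for Ebi3), which encodes the p19 chain of IL-23. Il23a stood at 12.4, 15 and 12.1 CPM in control libraries and 21.2, 23.0 and 23.7 CPM in NFL libraries, and the groups did not overlap. It rose by a log2 fold change of 0.80 ± 0.096 (SE, edgeR adjusted p = 1.96e-08). Il23a was thus the 1 of 3 other IL-12 family subunit genes that could be tested, and it rose.

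Of 19 receptor chain genes for the cytokines named here, 8 were tested, 2 rose and 0 fell. Il12rb2, a signaling chain of the IL-12 receptor that IL-35 can also use, measured 45.4, 52.3 and 44.1 CPM in control libraries and 62.2, 59.3 and 65.3 CPM in NFL libraries. Every NFL library was above the control range, and the log2 fold change was 0.41 ± 0.059 (SE, edgeR adjusted p = 1.48e-06). Serbp1, an abundant gene on the opposite strand that overlaps 6419 bases of the Il12rb2 span, stood at a mean of 2728 CPM in control and 2837 CPM in NFL libraries (log2 fold change 0.06, adjusted p = 0.169), and its part in the Il12rb2 counts was not tested. Il2rg, the common gamma chain used by the IL-4 receptor, rose by 0.25 ± 0.046 (SE, edgeR adjusted p = 1.66e-04). Another annotated gene, Gm20489, shares 3878 bases of the Il2rg span on the same strand. It had 1 count in NFL replicate 2 and 0 elsewhere, and the effect of this overlap on the Il2rg counts was not tested. Il6st, which encodes the gp130 chain used by IL-27, IL-35 and LIF, had a log2 fold change of 0.01 (95% interval -0.14 to 0.17), and Il12rb1 one of -0.04 (-0.16 to 0.07). Il27ra had 3 to 13 counts in each library and was not tested. The other tested chains did not pass. Il4ra, the IL-4 receptor alpha chain, stood at 67.5 to 78.0 CPM (log2 fold change -0.04, adjusted p = 0.776), and Tgfbr1, Tgfbr2 and Il10ra were also expressed. Csf2ra had 2 to 9 counts, Csf2rb at most 3, and Il5ra, Il13ra2 and Lifr had 0 in all 6 libraries.

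Csf2 encodes GM-CSF, a growth factor of macrophages and granulocytes. The gene (chromosome 11, 54247271 to 54249667, minus strand) had 206, 136 and 236 counts in control replicates 1 to 3 and 216, 207 and 261 in NFL replicates 1 to 3, which gave 8.37, 8.54 and 9.66 CPM against 13.42, 12.03 and 14.78 CPM. The lowest NFL library was above the highest control library. The means were 8.86 ± 0.702 and 13.4 ± 1.38 CPM (SD, n = 3 each). Csf2 rose 1.51-fold (95% interval 1.29 to 1.78; log2 fold change 0.60 ± 0.12, SE; edgeR adjusted p = 3.27e-04). An exact two-sided permutation test of the mean CPM gave p = 0.1, the smallest that 3 against 3 samples allow. The antisense transcript Gm12223, which overlaps 2068 bases of the Csf2 span, had 4, 10 and 5 counts in control and 3, 4 and 5 in NFL libraries.

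Csf2 lies with Il3, Il5, Il13 and Il4 in a cytokine gene cluster on chromosome 11 (53602982 to 54267277, 664.3 kb, GRCm38). Of 26 annotated genes there, 13 were protein-coding and 7 were tested. Il3, which encodes a growth factor of mast cells and basophils and sits next to Csf2, had 0 counts in all 6 libraries. Il5, the eosinophil growth factor, had 3 counts in control replicate 1, 2 in NFL replicate 2 and 0 in the other 4 libraries. Il4 had 5, 4 and 6 counts in control libraries and 2, 5 and 0 in NFL libraries. Summed over the libraries these were 15 and 7 counts, or 0.232 CPM (exact 95% Poisson interval 0.130 to 0.382) and 0.137 CPM (0.0549 to 0.281), so that a difference was not detectable at this depth. Il13, which shares receptor chains with IL-4, had 25, 17 and 30 counts in control libraries and 24, 18 and 18 in NFL libraries. In CPM these were 1.02, 1.07 and 1.23 against 1.49, 1.05 and 1.02, and 2 of the NFL libraries lay within the control range. Its log2 fold change was 0.09 ± 0.36 (SE, edgeR adjusted p = 0.933), and the 95% interval of -0.63 to 0.82 leaves room for a change as large as that of Csf2.

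The 5 other tested genes of the cluster were Rad50, Irf1, Gm12216, Slc22a5 and P4ha2, of which 0 rose and 1 fell. Rad50, a DNA repair gene between Il13 and Il5, had a log2 fold change of 0.02 (adjusted p = 0.854), and Irf1, an interferon-regulated transcription factor, one of 0.03 (adjusted p = 0.859). P4ha2, a collagen prolyl hydroxylase subunit, had 95, 47 and 102 counts in control libraries and 20, 34 and 57 in NFL libraries. Its log2 fold change was -0.77 (edgeR adjusted p = 0.0455), and it thus fell, a call that was lost when any 1 of 4 libraries was left out: NFL replicate 1 (-0.50), NFL replicate 2 (-0.71), control replicate 1 (-0.74) or control replicate 3 (-0.67).

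**Figure D3:**
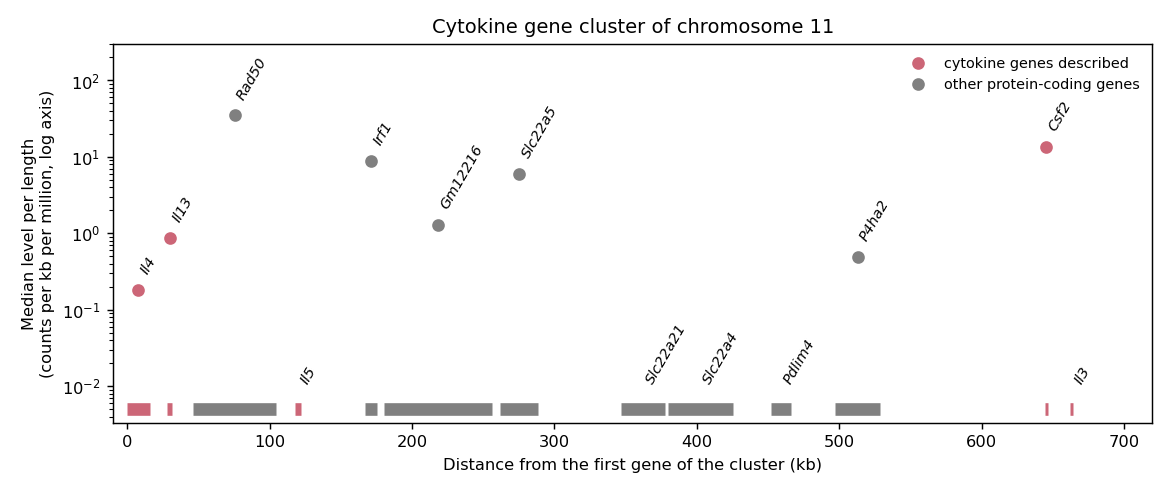
The 13 protein-coding genes of the chromosome 11 cluster by distance from its first gene (kb; bars at the bottom show gene spans), with dots for the median level per length over 6 libraries (log axis; red, the cytokine genes described; grey, other genes). Csf2 at 13.6 stands well above Il13 at 0.877 and Il4 at 0.183, and genes without a dot had a median of 0.

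Il10 (chromosome 1, 131019845 to 131024974, plus strand) encodes the anti-inflammatory cytokine IL-10. It had 442, 270 and 417 counts in control libraries and 303, 276 and 333 in NFL libraries, or 18.0, 16.9 and 17.1 CPM against 18.8, 16.0 and 18.9 CPM. The groups overlapped, with the lowest value in NFL replicate 2. The means were 17.3 ± 0.555 and 17.91 ± 1.615 CPM (SD, n = 3 each). The log2 fold change was 0.05 ± 0.093 (SE, edgeR adjusted p = 0.857), and its 95% interval of 0.907-fold to 1.17-fold does not reach the 1.29-fold lower bound of Csf2. Il10ra, the ligand-binding receptor chain, had a log2 fold change of 0.06 (adjusted p = 0.843). Il10rb, the second chain, had 1 count in NFL replicate 2 and 0 elsewhere. Another annotated gene, Gm21970, shares 13288 bases of its span on the same strand and was also at 0, so the level of Il10rb is uncertain.

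Tgfb1 (chromosome 7, 25687002 to 25705077, plus strand) encodes TGF-beta 1, which is secreted in a latent form and released outside the cell. With 2413 to 3926 counts per library it was the most deeply counted of the 10 genes. The levels were 159.5, 151.4 and 150.4 CPM in control libraries and 167.6, 164.1 and 158.3 CPM in NFL libraries. NFL replicate 3 lay below control replicate 1, so the ranges overlapped. The means were 153.8 ± 5.02 and 163.3 ± 4.69 CPM (SD, n = 3 each). The log2 fold change of 0.09 ± 0.036 (SE) did not pass the test (edgeR adjusted p = 0.165), and its 95% interval was 1.009-fold to 1.116-fold.

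Of 18 genes for latent TGF-beta binding, activation and response, 12 were tested, 1 rose and 1 fell. Furin, a protease that cleaves the TGF-beta precursor, stood at 84.8 ± 5.81 CPM in control and 98.1 ± 5.34 CPM in NFL libraries and rose by 0.21 (edgeR adjusted p = 0.00207), a call that was lost without control replicate 3 (0.15). Itgav, the alpha-v integrin chain that takes part in releasing the latent form, stood at 412.8 ± 2.86 and 366.8 ± 5.60 CPM (SD, n = 3 each). Itgav fell, with a log2 fold change of -0.17 (edgeR adjusted p = 4.40e-05). Of the integrin beta chains on this list, Itgb8 had 0 counts in all 6 libraries and Itgb6 had at most 3 in any library. Release of the latent form was not tested. The receptors Tgfbr1 (-0.01, adjusted p = 0.969) and Tgfbr2 (-0.07, adjusted p = 0.470) did not pass the test. Smad7, an inhibitor of the pathway that TGF-beta itself induces, had a log2 fold change of -0.23 (adjusted p = 0.146).

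Lif (chromosome 11, 4257557 to 4272514, plus strand) had 1 count in each control library and 3, 2 and 1 counts in NFL replicates 1 to 3, sums of 3 and 6. These values are at the floor, and no difference was detectable at this depth. Its receptor gene Lifr had no count in any library.

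Among 30 other secreted cytokine genes, 12 were tested, 4 rose and 0 fell. Lta, which encodes lymphotoxin alpha, had the highest level of the 4, at 531.8 ± 24.3 CPM in control and 853.0 ± 23.0 CPM in NFL libraries (log2 fold change 0.68 ± 0.030, SE; edgeR adjusted p = 2.92e-24). Ifng, the type 1 effector cytokine, rose from 10.6 ± 1.92 to 19.1 ± 0.714 CPM (0.82 ± 0.11, SE; adjusted p = 1.16e-07). Il24, a member of the IL-10 family, rose from 17.1 ± 0.375 to 24.0 ± 0.621 CPM (0.49 ± 0.084, SE; adjusted p = 4.69e-05). Tnf rose from 84.2 ± 6.93 to 98.4 ± 4.33 CPM (0.22 ± 0.048, SE; adjusted p = 0.00168). In each of these 4 genes every NFL library was above every control library. Of all genes tested, 3.47% were called higher, and groups did not overlap in either direction for 22.7%. The list was written with earlier results of these data known, so its counts are a description. Tgfb2, Il11, Mif, Osm, Il16, Csf1, Flt3l and Il17f did not pass, with log2 fold changes from -0.20 to 0.48. Il2, Il7, Il9, Il15, Il17a, Il21 and Areg had 0 counts in all 6 libraries.

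**Figure D4:**
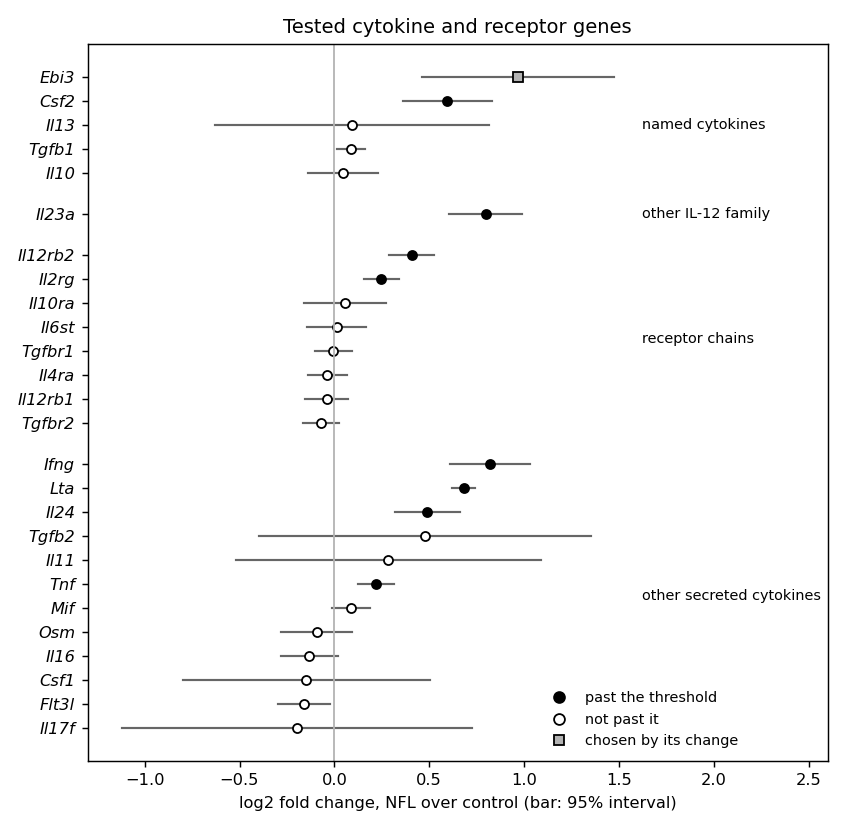
Log2 fold changes (NFL over control) with 95% intervals for the tested genes among the 10 cytokines, the other IL-12 family subunits, the receptor chains and the other secreted cytokines (filled circles, adjusted p under 0.05; open circles, not past it; grey square, Ebi3, which was chosen by this change). Csf2 at 0.60, Il23a at 0.80 and Ifng at 0.82 lie away from 0, whereas the intervals of Il10 and Il13 include 0.

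Transcription factors that act on cytokine genes were mostly expressed, with 24 of 26 tested, 3 higher and 5 lower. Relb and Nfkb2, the subunit genes of the noncanonical NF-κB dimer, rose. Relb stood at 17.9, 18.5 and 18.3 CPM in control libraries and 37.5, 36.6 and 39.0 CPM in NFL libraries (log2 fold change 1.05 ± 0.075, SE; edgeR adjusted p = 6.11e-16), and Nfkb2 rose by 0.72 ± 0.043 (SE, adjusted p = 1.05e-18). The canonical subunit genes did not pass: Rela had a log2 fold change of -0.005, Nfkb1 one of 0.08 (95% interval -0.004 to 0.17) and Rel one of 0.13 (-0.002 to 0.26). For Nfkb1 and Rel every NFL library was above every control library, and groups did not overlap for 22.7% of all genes tested. Junb, an AP-1 component, rose by 0.52 ± 0.065 (SE, adjusted p = 4.46e-08).

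The 5 that fell were Nfatc2 (fell by 0.29 on the log2 scale, adjusted p = 1.89e-06), Nfil3 (by 0.17, adjusted p = 0.00349), Gata3 (by 0.22, adjusted p = 0.0126), Fosl2 (by 0.22, adjusted p = 0.0172) and Nfatc1 (by 0.26, adjusted p = 0.0179). Gata3, the master regulator of type 2 cytokine genes, stood at 56.2 ± 3.91 CPM in control and 48.6 ± 1.69 CPM in NFL libraries (SD, n = 3 each), and its call was lost without control replicate 1 (-0.15) or NFL replicate 3 (-0.19). The calls of Nfatc1 and Fosl2 were each lost without control replicate 1 (-0.22 and -0.20), NFL replicate 1 (-0.25 and -0.17) or NFL replicate 3 (-0.22 and -0.20), and that of Nfil3 without control replicate 1 (-0.12). Maf had 2 counts in control replicate 2 and 0 in the other libraries.

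All 10 targets of STAT signaling on the list were tested, 2 rose and 0 fell. Il2ra, which encodes the alpha chain of the IL-2 receptor, rose from 1647 ± 35.2 to 1861 ± 18.8 CPM (log2 fold change 0.18, edgeR adjusted p = 1.06e-06). Bcl2l1, a survival gene, rose by 0.17 (adjusted p = 0.0189), which was lost without NFL replicate 1 (0.16), NFL replicate 3 (0.16) or control replicate 3 (0.13). Socs1, Socs2, Socs3 and Cish, the feedback inhibitors, did not pass, with log2 fold changes of -0.03, 0.01, -0.04 and 0.06. Over these pathway lists together, 19 of 66 tested genes were called, 13 higher and 6 lower. The lists were written with earlier results of these data known, so nothing is read from that share.

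The cell labels were checked against marker genes. Of 10 T-cell markers, Cd2 and Cd5 had 0 counts in all libraries, Thy1 stood at 1575 to 1709 CPM, and Cd3e fell from 61.1 ± 4.24 to 50.2 ± 0.960 CPM (log2 fold change -0.28, edgeR adjusted p = 5.73e-04). Other T-cell receptor complex genes were low, with Trac at 0.994 to 2.5 CPM, Cd3d at 2.322 to 4.825 CPM and Cd3g at 6.046 to 8.859 CPM. Cd8a, the marker of the positive selection, was at 3.20 to 4.46 CPM and Cd8b1 at 0.870 to 1.57 CPM, below Cd4 at 23.3 to 27.6 CPM. The markers were uneven, so the T-cell and CD8 identity of the cultures rests on the design text and not on these transcripts. In bulk samples fewer cells of a type and less RNA per cell cannot be told apart.

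Many markers of other cells that can make these cytokines were at the floor, but each list held some that were not. Of 12 macrophage and monocyte markers, 10 were at the floor in every library, including C1qa, C1qb, C1qc, Cd14, Itgam and Mrc1 at 0, and the summed level was 24.6 to 27.5 CPM in control and 19.2 to 23.5 CPM in NFL libraries. Nearly all of that sum was Cd68, a lysosomal protein gene that other cells also express, at 25.6 ± 1.43 and 21.5 ± 2.27 CPM (log2 fold change -0.26, edgeR adjusted p = 0.0494). Its call was lost in 7 of 14 alternatives, among them leaving out NFL replicate 2 (-0.17), NFL replicate 3 (-0.28) or control replicate 1 (-0.20). The part of such cells in the cytokine values was not tested. Of 8 dendritic cell markers, Flt3, Siglech and Cd209a were at 0, and the summed level was 32.5 to 37.4 CPM in control and 43.2 to 44.4 CPM in NFL libraries. Itgax, one of the 2 tested markers, did not pass (log2 fold change -0.35, edgeR adjusted p = 0.638), and the rise in the sum came from the other, Batf3. Most of that sum was Batf3, which T cells can also express, at 33.1 ± 2.15 and 41.5 ± 1.24 CPM (log2 fold change 0.33, edgeR adjusted p = 4.92e-04), and its part in the Ebi3 difference was not tested. Of 8 B-cell and plasma cell markers, 4 were at the floor in every library, with Ms4a1 and Ighm at 0, and the summed level overlapped between groups (12.1 to 13.8 and 11.6 to 14.1 CPM). Most of that sum was Pax5, at 9.86 ± 0.830 CPM in control and 9.37 ± 1.07 CPM in NFL libraries (log2 fold change -0.06, edgeR adjusted p = 0.851). Cd79a and Cd79b were also tested and did not pass. Of 12 mast cell and basophil markers, 5 were at 0, namely Mcpt4, Tpsb2, Tpsab1, Ms4a2 and Prss34. Their summed level was 7.22 to 8.92 CPM in control and 5.70 to 6.91 CPM in NFL libraries, and the fall in the sum came from Cma1, at 4.70 ± 0.827 and 2.95 ± 0.349 CPM (log2 fold change -0.68, adjusted p = 0.0226). The call of Cma1 was lost without NFL replicate 2 (-0.59), NFL replicate 3 (-0.71) or control replicate 3 (-0.52). The other tested markers of that list did not pass, with log2 fold changes of 0.29 for Mcpt8, 0.31 for Hdc and -0.10 for Kit. Of 6 natural killer cell markers, Ncr1 and Klra8 were at 0 and Klrb1c fell by 0.51 (adjusted p = 2.43e-06), with summed levels of 458.9 to 482.6 and 441.0 to 460.4 CPM. Most of that sum was Eomes, which is also on the list of transcription factors of cytokine genes. Eomes stood at 439.1 ± 12.2 CPM in control and 426.3 ± 10.1 CPM in NFL libraries (log2 fold change -0.04, edgeR adjusted p = 0.486).

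The genes whose profile was most like that of Ebi3 over the 6 libraries were found among 11364 tested genes by the root mean square difference of centered log2(CPM + 0.5) values. They were Gm30873 (0.15), Zc3h12b (0.16), Gm16083 (0.18), Nfe2l3 (0.19) and Gm5541 (0.19), beside a spread of 0.45 in the Ebi3 profile itself. Gm5541 was far more abundant than Ebi3, at 100.9 ± 3.48 CPM in control and 166.5 ± 0.293 CPM in NFL libraries. Nfe2l3, a transcription factor of the NRF family, stood at 2.38 ± 0.427 and 3.612 ± 0.7001 CPM, a level near that of Ebi3. It did not pass the test (edgeR adjusted p = 0.122), and neither did Zc3h12b (0.068) or Gm16083 (0.113). These genes were found by likeness to a profile that differs between the groups, so their differences are a description.

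**Figure D5:**
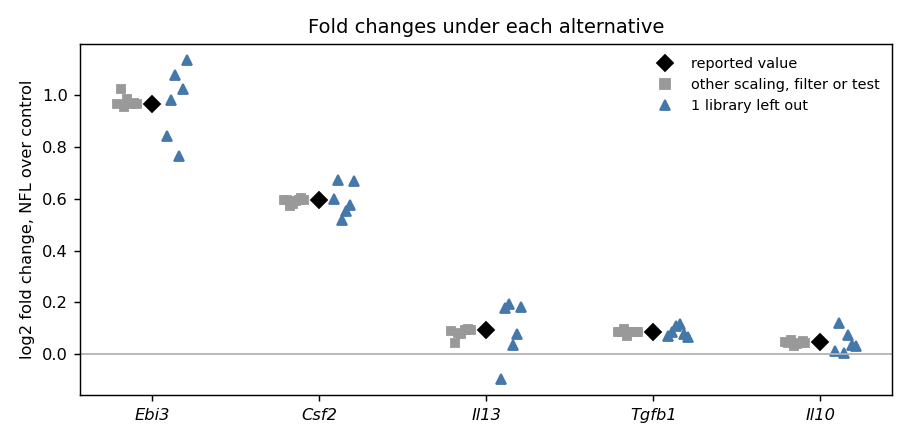
Log2 fold change (NFL over control) of the 5 tested genes as reported (diamonds), under another scaling, filter, test or block (grey squares) and with 1 library left out (triangles). Ebi3 ranges from 0.77 to 1.14 and Csf2 from 0.52 to 0.67, whereas Il13 falls on both sides of 0.

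The fold change of Csf2 stayed past the threshold in all 14 alternatives that were run, between 0.52 and 0.67 on the log2 scale, and its largest edgeR adjusted p was 0.0167, without NFL replicate 3. Il23a (0.74 to 0.89), Il12rb2 (0.36 to 0.48), Ifng (0.71 to 0.95), Lta (0.65 to 0.71) and Il24 (0.47 to 0.51) were likewise past it in all 14. Tgfb1 was past it in 0 of 14, at 0.07 to 0.12 with a smallest adjusted p of 0.0986, and Il10 in 0 of 14, at 0.01 to 0.12.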

How the data were processed

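Poly(A)-selected libraries were sequenced on an Illumina instrument, and the table deposited by the authors holds raw counts for each gene and each of the 6 samples, in whole numbers. The submitters' processing notes name GRCm39, R 4.2.1 and limma 3.54.2 without a role. Aligner, counting program and strand use were not given in the sources used here. Identifiers and versions of 54349 genes were identical to GENCODE M21 (GRCm38), whose coordinates and exon lengths were used, so positions are on GRCm38 although the notes name another build. Total counts were 15843045 to 24639756.

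In R 4.3.3, genes were kept by filterByExpr (minimum count 10, total 15), scaled by TMM and tested with the quasi-likelihood test of edgeR 4.0.16 between groups taken from the sample titles, without a block. Benjamini-Hochberg adjustment was over all 14082 genes, with a threshold of 0.05. Alternatives were DESeq2 1.42.0 (its size factors and Wald test), limma-voom (limma 3.58.1), library size alone, other filters, thinned counts, a replicate block and each library left out. The script was tested on simulated data. Figures were drawn with matplotlib 3.10.9.

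The members and lists were chosen with earlier results of these data known. Named genes were the 10 members, up to 6 called genes of each list, partners, receptor chains, the genes of the cluster and the 5 genes most like Ebi3. Other genes named without a call, among them Rela, Nfkb1, Rel, Smad7, Maf and the SOCS genes, and the genes that overlap a named one, were chosen after their values were seen. Proteins were not analysed here.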

Additional observations from a re-analysis of the deposited data

How the results depend on the processing

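Of the 10 genes, 2 were called in the reported fit and 1 with the DESeq2 Wald test, where Ebi3 and Il13 received no adjusted p. Leaving out 1 library gave 1 to 2, and 1 came from leaving out control replicate 1 or NFL replicate 1, which ended the call of Ebi3. Il13 reversed to a log2 fold change of -0.10 without NFL replicate 1, within its standard error of 0.36, so that library decides its sign, and ranged from -0.10 to 0.19 over the libraries left out. Over all genes, leaving out 1 library gave 508 to 966 calls, with 250 to 514 higher and 258 to 452 lower, against 986, 489 and 497. The fewest came without NFL replicate 3. In these fits 15 to 19 of the listed pathway genes were called. Library size alone shifted the median of all genes by less than 0.1 on the log2 scale (-0.01). Levels per length moved with the length used: Ebi3 was at 2.19 per exon length and 3.70 per coding length.

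With the replicate block there were 1049 calls, 536 higher and 513 lower, and 2 of the 10 genes. Deviations from the group means correlated by 0.0115, 0.0148 and 0.0074 between libraries with the same number. Between libraries with different numbers the correlations were lower, at -0.016 to 0.0033. All of these values were small, and they do not settle whether the numbers pair the samples. The labels do not state a pairing, so the reported fit used none.

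Counts of 3 or fewer limit Il5 and Lif, and counts of 0 limit Il12a and Il3, to statements about detection. Ebi3 and Il13 rest on 17 to 66 counts per library.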
